A study of Mus musculus with 12 samples.

Results

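Replication-dependent histone genes encode the H1, H2A, H2B, H3 and H4 proteins that package newly copied DNA. Members were all genes whose symbol begins with Hist1h, Hist2h, Hist3h or Hist4h, without symbols that hold -ps, and the rule took 69 of the 55335 genes in the deposited tables. RNA was sequenced from mouse bone marrow-derived dendritic cells (BMDCs) of strain C57BL/6, grown from the marrow of adult male and female animals for 6 days with GM-CSF, in 12 libraries. The WT group held CreER cells with intact Ctcf alleles and the KO group held CreER;CTCF fl/fl cells, in which a Cre recombinase made from the Rosa26 locus deletes Ctcf once 4-hydroxytamoxifen (4-OHT) is given, here on the first day of culture. The WTL and KOL groups were the same 2 genotypes after 3 h of lipopolysaccharide (LPS) at 100 ng/ml, and each of the 4 groups held 3 replicates. The comparisons asked how loss of CTCF, a DNA-binding protein that shapes chromosome loops, bears on gene expression in resting and LPS-treated cells.

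The sources do not make clear whether the WT cultures also received 4-OHT, so an effect of that agent and of Ctcf deletion cannot be told apart here. Ribosomal RNA depletion is what the labels give, whereas the study's methods name a kit that selects poly(A) RNA, a difference that matters for histone mRNA, and the strand setting of the quantification was not given. Counts are RSEM expected counts by the authors, in which reads that fit several genes are divided among them, so counts of histone genes alike in sequence are shared estimates.

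As background, most histone genes of this kind lie in clusters, lack introns and are transcribed mainly in S phase. Their main mRNA ends just after a conserved stem-loop bound by SLBP and has no poly(A) tail, which sets it apart from nearly all other mRNA of protein-coding genes. Some members also make longer, polyadenylated mRNA that reads past the stem-loop, above all in cells that have left the cell cycle, and a library of poly(A) RNA captures mainly that form.

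The 12 libraries held between 12769773 and 16586334 expected counts each. Ctcf was measured at 1051, 987 and 975 normalized counts (scaled between libraries by TMM, the unit used throughout unless TPM is named) in WT and at 569.7, 562 and 516 in KO. Ctcf mRNA was lower in each KO library than in each WT library and was not gone (log2 fold change −0.87 ± 0.08 (SE, n = 3 against 3), edgeR adjusted p = 3.94e-07). After LPS the values were 886, 817 and 745 in WTL and 563, 530.0 and 526 in KOL (−0.59 ± 0.08, edgeR adjusted p = 2.39e-05), again without overlap.

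Per the study's methods, the BMDCs were taken by bead selection for CD11c, a step that would remove cells without it. The cell label was checked against marker lists. All 9 dendritic and antigen-presenting markers were tested, with Cd74 the most abundant, and their summed level ran from 7457 TPM (read density per transcript length, scaled to the same sum in each library) in a KO library to 16157 TPM in a KOL library. Macrophage and monocyte markers were also expressed, at a summed 722 to 971 TPM, and neutrophil markers at 193 to 445 TPM, led by S100a8. These levels moved with the groups. Dendritic markers summed to 11215 ± 283 TPM in WT, 13015 ± 2028 in WTL, 7571 ± 171 in KO and 13563 ± 2389.8 in KOL. Neutrophil markers summed to 389 ± 11.9 TPM in WT, 411 ± 53.4 in WTL, 209.8 ± 16.4 in KO and 317 ± 23.4 in KOL, and 6 of the 7 tested were called lower in KO than WT. Dendritic markers called lower in KO were H2-Ab1, H2-Aa, Flt3 and Ccr7, and Itgax, which encodes CD11c, was called higher. Macrophage markers summed to 722, 775 and 726 TPM in WT and 909, 913 and 929 TPM in KO, with Csf1r and Ly6c2 called higher in KO and Adgre1, Mertk, Cd14 and Fcgr1 lower. The part of such shifts in the histone values was not tested. B cell markers reached at most 1.16 TPM, T and NK cell markers 0.54 TPM, erythroid markers 0.960 TPM and mast cell markers 0.720 TPM in any library, while the progenitor markers Kit and Cd34 summed to 2.70 to 8.21 TPM. These are bulk samples, so fewer cells of a type and less RNA per cell cannot be told apart.

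WTL replicate 2 stood apart from the rest. Ribosomal RNA took 5.17% of its counts against 0.383% to 1.19% in the other libraries. Rn7sk, a short RNA with no poly(A) tail, stood at 188, 195 and 241 normalized counts in WT and at 333, 3855 and 501 in WTL. It stood at 170.5, 222 and 210.2 in KO and at 2988, 2751 and 3738 in KOL, so WTL replicate 2 and all KOL libraries were high. Of the 62 members with a count, 30 had their highest value in WTL replicate 2. Results that rest on this library are given with and without it.

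Few members were measured well. Of the 69, 7 had no count in any library (Hist1h2ba, Hist1h2aa, Hist1h2an, Hist1h2aj, Hist1h2ai, Hist1h2ah and Hist2h3c1), 62 had a count and 55 passed 3 counts in at least 1 library. Only 13 passed the filter on low counts and were tested: Hist1h1c, Hist1h1d, Hist1h1e, Hist1h2bc, Hist1h2be, Hist1h2bg, Hist1h2br, Hist1h4i, Hist2h2aa2, Hist2h2be, Hist2h3c2, Hist3h2a and Hist4h4. The other 56 were not tested. The filter takes a gene on its counts in libraries of any group, so a member low in a group can enter through others. The highest group mean among them was 17.2 normalized counts, for Hist1h2bj in WTL, and 11.5, for Hist2h2aa1 in KOL, without WTL replicate 2. Only 17 members reached a mean of 1 TPM.

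By mean TPM over the 12 libraries the order began with Hist1h1c, which encodes the linker histone H1.2, at 71.7 TPM, followed by the H2B gene Hist1h2bc at 41.4 TPM. The H2A gene Hist2h2aa2 (10.9 TPM), the H4 gene Hist1h4i (8.28 TPM) and the H2A gene Hist3h2a (6.97 TPM) came next. Hist1h2bg (2.88 TPM), Hist2h2be (2.33 TPM) and Hist1h2bj (2.11 TPM), all H2B genes, closed the first 8. The order differed by group, and in WT alone Hist2h2aa2 stood at 0.973 TPM, under Hist1h4i (10.6 TPM), Hist3h2a (6.70 TPM), Hist2h2be (4.01 TPM) and Hist1h2bg (3.48 TPM). Hist1h1c alone held 53.7% of all histone counts in WT, 34.6% in WTL, 62.1% in KO and 44.4% in KOL. It thus weighs heavily in sums over the family, and less so after LPS. On the TPM scale H1 genes held 45.3% of the family sum in WT and 52.4% in KO, but 24.1% in WTL and 32.7% in KOL. The H2A share of that sum was 6.28% in WT, 12.9% in WTL, 11.4% in KO and 24.1% in KOL.

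Most of the members tested have long annotated transcripts. The mRNA 3′ stem-loop motif was found in 40 of 69 members (58.0%) against 46 of 55450 annotated genes (0.083%), counting all members among those genes. A limit of 300 bases of annotated transcript past the stop codon, chosen after the values were seen, set off 22 longer members, which held 93.7% of all histone counts and 11 of the 13 members tested. Counts are not divided by length, so at the same TPM a longer transcript holds more counts and passes the filter more readily. The share of counts is therefore no share of transcript level. Hist1h1c extends 880 bases past its stop codon and 840 past its stem-loop, and Hist3h2a extends 1700 and 1643 bases. Hist2h2be runs 2192 bases past the stop codon and Hist1h2bc, which is spliced from 2 exons, 742 bases, with no motif found in the annotated transcript of either. Of the 8 members highest in mean TPM, Hist2h2aa2 ends 109 bases past the stop codon and 35 past the stem-loop, and Hist1h2bg (200 bases) and Hist1h2bj (66 bases) are short too. The stem-loops of the members that the results turn on are shown because they are the element by which such mRNA normally ends. They were read from GENCODE M21 transcripts, with the stem-loop in capitals and the flanks in lower case.
Hist1h1c: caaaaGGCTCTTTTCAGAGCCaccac
Hist3h2a: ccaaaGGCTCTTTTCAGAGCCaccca
Hist2h2aa2: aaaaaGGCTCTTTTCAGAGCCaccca
Hist1h4i: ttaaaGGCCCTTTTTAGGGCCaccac
Hist1h4c: caaaaGGCCCTTTTCAGGGCCaccca
The Hist1h1c, Hist3h2a and Hist2h2aa2 stem-loops are identical in the 16 letters in capitals. The H4 gene Hist1h4i holds 1 mismatch to the consensus searched and Hist1h4c, another H4 gene, holds 0.

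Short members were counted at low levels in every group and were high in WTL replicate 2. The 47 short members, 41 of them with a count and 2 of them tested, end within 300 bases of the stop codon or, for the pseudogenes Hist1h2aj and Hist1h2al, have no stop codon annotated. They summed to 72, 78.1 and 83.3 normalized counts in WT and 82.0, 352 and 128 in WTL. The sum was 153, 108 and 137 in KO and 165, 139 and 166 in KOL. The KO and KOL libraries were all above the WT libraries, and WTL overlapped each of the other groups. That pattern came from Hist2h2aa1 and Hist2h2aa2. Without this pair, a choice made after the values were seen, the sum was 68.8, 72.2 and 80.1 in WT, 69.6, 314 and 80.3 in WTL, 89.4, 61.7 and 74.6 in KO and 53.4, 61.6 and 67.5 in KOL. KO then overlapped WT (0.03) and KOL overlapped KO (−0.31). KOL was below every WT library and below WTL without overlap (−1.35, and −0.30 without WTL replicate 2). With the pair the log2 ratio of group means for WTL against WT was 1.27 with WTL replicate 2 and 0.43 without it, and without the pair 1.07 and 0.02. Short members took 19.7% of histone counts in WTL replicate 2, against group means of 4.07% in WT, 3.78% in KO and 8.27% in KOL. These are shares of counts not divided by transcript length.

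**Figure D1:**
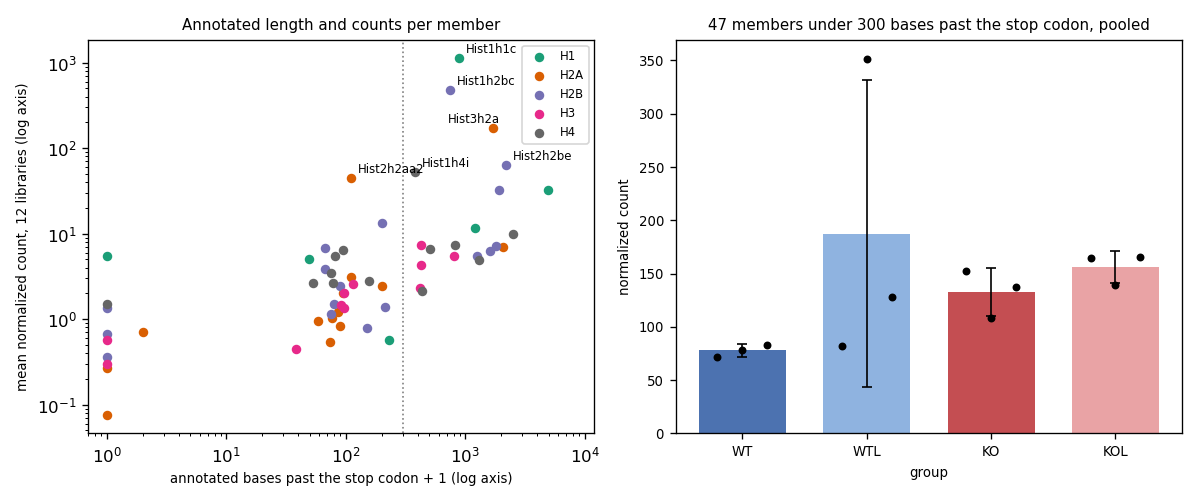
Annotated bases past the stop codon against the mean normalized count over all libraries (both log axes), for members with a count and an annotated stop codon. Beside it are the summed normalized counts of short members in each library. WTL replicate 2 stands at 352 normalized counts and the other 11 libraries at 166 or below.

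The comparison of KO with WT asks what changed in resting cells with lowered Ctcf mRNA. Hist1h1c, Hist1h2bc, Hist3h2a and an H2A pair of the Hist2 cluster were higher in KO. Hist1h1c measured 993, 1066 and 1022 normalized counts in WT and 2215, 2169 and 2165 in KO. All KO libraries stood far above all WT libraries (1027 ± 36.7 against 2183 ± 28.0, SD, n = 3 each), a log2 fold change of 1.09 ± 0.13 (SE, edgeR adjusted p = 9.77e-06). Hist1h2bc measured 303, 426 and 446 in WT and 734, 662 and 707 in KO. These groups did not overlap either, and the log2 fold change was 0.84 ± 0.14 (edgeR adjusted p = 0.000167). Hist3h2a, the H2A gene of the small Hist3 cluster, measured 120.3, 154 and 129 in WT and 181, 209 and 188 in KO. Each KO library was higher, by less than in the other genes named (0.52 ± 0.11, edgeR adjusted p = 0.00155).

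Among the members tested the largest log2 fold change was that of Hist2h2aa2, an H2A gene of the Hist2 cluster with a copy alike in sequence, Hist2h2aa1, that was not tested by itself. All windows of 100 bases in the annotated transcript of Hist2h2aa2 occur in that of Hist2h2aa1, and 88.1% of those of Hist2h2aa1 occur in that of Hist2h2aa2. Their counts are thus shared estimates, and the summed count, a choice made after the values were seen, is given first. The sum was 3.10, 5.93 and 3.22 normalized counts in WT and 63.3, 46.8 and 62.9 in KO. WT was near the level of 3 counts that marks the floor here, and every KO library was far above it (log2 fold change 3.79 ± 0.44, edgeR adjusted p = 6.85e-06). For Hist2h2aa2 alone the values were 2.76, 5.87 and 0 in WT and 63.7, 47 and 63.0 in KO (4.26 ± 0.60, edgeR adjusted p = 4.68e-05). The values printed for single genes come from counts rounded to whole numbers, and those of the sum from counts not rounded. A single gene can therefore stand slightly above the sum.

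In all, 4 of the 13 members tested were called higher in KO than WT (Hist1h1c, Hist1h2bc, Hist2h2aa2 and Hist3h2a), where called means an adjusted p under 0.05 over 14008 genes and a fold above 1.3. Among all genes tested 17.3% were called higher and 17.2% lower. None of the 13 was called lower by edgeR, and 0 had an unadjusted p under 0.05 with a lower value. DESeq2, run without that filter, called 1 lower, Hist1h4m. Limma called Hist1h4m lower with a TPM pseudocount of 1, and Hist1h4m and Hist1h4i with 0.1. With either it called 6 members higher, the same 4 and 2 outside the 13, Hist1h4n and Hist1h2al. Hist1h4m, named after its values were seen, had 0 counts in all KO and KOL libraries and 5.51, 2.52 and 2.59 normalized counts in WT. It shares 88.1% of its 100-base windows with other genes and the H4 gene Hist1h4n 80.7%. Their sum, taken after the values were seen, was 5.51, 4.22 and 4.52 in WT and 10.6, 3.97 and 7.41 in KO, which overlapped, so no fall is read from Hist1h4m. The median log2 fold change was 0.54 over the 13 members and −0.01 over all genes. The 0.54 is the value of Hist4h4, which was low in every group and not called. Hist2h2aa2, near the floor in WT, entered the 13 through other groups. On the TPM scale the median of all genes was −0.10, and 38.1% of called genes were higher against 50.2% in normalized counts.

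Hist1h4i and Hist2h2be did not pass the test in resting cells. Hist1h4i measured 52.4, 51.2 and 63.1 in WT and 47.6, 45.1 and 40.8 in KO, with no overlap (−0.32, edgeR adjusted p = 0.129). Hist2h2be measured 102, 97.3 and 101 in WT and 122, 105 and 97.3 in KO, and these values overlapped (0.11 ± 0.13, edgeR adjusted p = 0.525). Hist1h2bj, which was not tested, measured 3.09, 1.36 and 2.44 TPM in WT and 0.37, 0.74 and 1.06 TPM in KO. Hist1h2al, named after its values were seen, is annotated as a processed pseudogene outside the Hist1 region, at position 51202727 of chromosome 13. It had 0 counts in all WT and WTL libraries and 0.897, 5.76 and 1.85 normalized counts in KO. Its group means of 2.84 in KO and 4.03 in KOL lie around the floor of 3 counts per library, so no fold is given, although limma called it higher in KO.

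**Figure D2:**
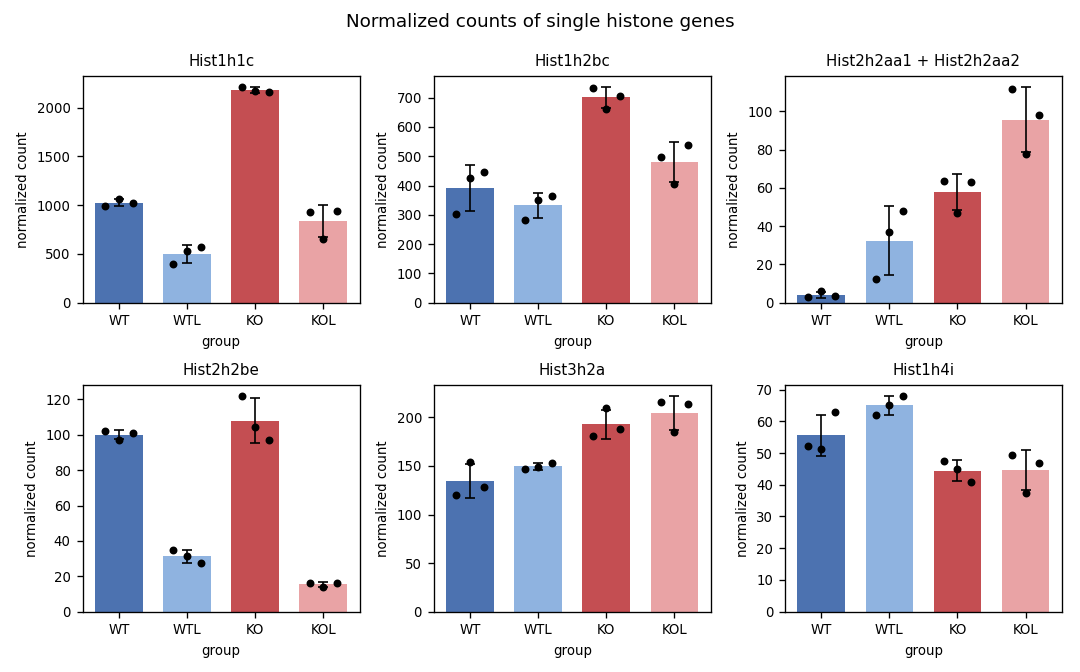
Normalized counts (linear axis) in each of the 12 libraries for named histone genes, with the mean and SD of each group. Hist1h1c and Hist1h2bc sit higher in all KO libraries than in all WT libraries, and Hist2h2be sits lowest in KOL, at 14 to 16.1.

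The comparison of WTL with WT asks how 3 h of LPS changed WT cells. Hist1h1c and Hist2h2be fell. Hist1h1c measured 401, 532 and 573 normalized counts in WTL, all under the lowest WT library at 993 (log2 fold change −1.03 ± 0.14, edgeR adjusted p = 1.45e-05). Its call rests on a fold just over 2 and is lost without WTL replicate 1, where the value is −0.90 with an edgeR adjusted p of 3.10e-05. Hist2h2be, an H2B gene, measured 35.1, 31.4 and 27.6 in WTL. These values were all far below WT, with a log2 fold change of −1.68 ± 0.15 (edgeR adjusted p = 3.42e-07). Hist1h2bc measured 283, 349.9 and 363 in WTL and overlapped WT (−0.24, edgeR adjusted p = 0.172).

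The summed count of Hist2h2aa1 and Hist2h2aa2 was 12.4, 37.2 and 47.8 in WTL, above every WT library and widely spread (2.99 ± 0.48, edgeR adjusted p = 9.45e-05, and 2.91 without WTL replicate 2). The linker histone gene Hist1h1e measured 6.43, 7.55 and 7.78 in WT and 10.8, 41.2 and 10.6 in WTL. Only WTL replicate 2 was far above WT, and the call (1.53 ± 0.59, edgeR adjusted p = 0.0368) is lost without it (0.55, adjusted p = 0.445). That call is also lost without WT replicate 1 (1.37, adjusted p = 0.114), replicate 2 (1.48, adjusted p = 0.0971) or replicate 3 (1.5, adjusted p = 0.0899), and in DESeq2 (adjusted p = 0.0606). The H2B gene Hist1h2bg measured 11.9, 16.8 and 13.8 in WT and 5.39, 22.7 and 5.32 in WTL. It was not called with WTL replicate 2, which was the highest, and was called lower without it (−1.39, edgeR adjusted p = 0.0171).

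For WTL against WT, 2 of the 13 members tested were called higher (Hist1h1e and Hist2h2aa2) and 2 lower (Hist1h1c and Hist2h2be), with a fold above 2. Hist1h1e and Hist2h2aa2, both low in WT, passed the filter on low counts through libraries of other groups. Among all genes 12.6% were called higher and 9.99% lower. The members' median log2 fold change was 0.03 and that of all genes −0.02. On the TPM scale the median of all genes shifted to −0.44, with 770 genes called higher and 1975 lower (28.1% higher against 55.8% in normalized counts). The count called higher was 1 without WT replicate 2 or WTL replicate 2, 4 without WTL replicate 1 and 5 without WTL replicate 3. The count called lower was 1 without WTL replicate 1 and 4 without WTL replicate 2. These fits let 16 to 21 members through the filter.

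The comparison of KOL with KO asks the same of cells with lowered Ctcf mRNA. Hist1h1c measured 927, 654 and 943 normalized counts in KOL against 2215, 2169 and 2165 in KO. All KOL libraries were lower, with a log2 fold change of −1.37 ± 0.13 (edgeR adjusted p = 4.46e-07). Hist2h2be measured 16.1, 14 and 16 in KOL, the lowest values of the 12 libraries for this gene (−2.80 ± 0.17, edgeR adjusted p = 3.41e-09). Hist1h2bg measured 29.6, 17.3 and 21.3 in KO and 4.30, 5.85 and 7.47 in KOL. The groups did not overlap (−1.93 ± 0.50, edgeR adjusted p = 0.00326). Hist1h2br, another H2B gene, measured 10.8, 21.1 and 12 in KO and 0, 0 and 1.07 in KOL (edgeR adjusted p = 0.000754). That rests on 1 count against 47, a ratio of 0.0253 with a 95% exact interval of 0.000627 to 0.148 for counting error alone. Hist1h2br shares 91.5% of its 100-base windows with other genes and the H2B gene Hist1h2bq 96.9%, so their counts are shared estimates too. Their sum, a choice made after the values were seen, was 18.8, 21.5 and 17 in KO and 7.02, 4.81 and 4.7 in KOL. It was lower in each KOL library, by less than Hist1h2br alone (−1.75 ± 0.36, edgeR adjusted p = 0.000608).

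Hist1h2bc measured 498, 404 and 537 in KOL, below every KO library, at a fold under the limit of 2 (−0.55 ± 0.14, edgeR adjusted p = 0.00267). Limma with a TPM pseudocount of 0.1 called Hist1h2bc lower. The summed count of Hist2h2aa1 and Hist2h2aa2 was 111, 77.5 and 98.0 in KOL. It was higher than in KO in each library, also at a fold under 2 (0.73 ± 0.29, edgeR adjusted p = 0.0366), and the adjusted p ranged from 0.0182 to 0.134 with 1 KO or KOL library left out. Hist3h2a measured 216, 185 and 214 in KOL and overlapped KO (0.09, edgeR adjusted p = 0.481), and its sign turned on the TPM scale (−0.33 with a pseudocount of 1). Of the 13 members tested, 4 were called lower (Hist1h1c, Hist1h2bg, Hist1h2br and Hist2h2be) against 13% of all genes, and 0 were called higher by edgeR against 15.1% of all genes. Of those 13, 0 had a higher value at an unadjusted p under 0.05. DESeq2, run without the filter, called 2 members outside the 13 higher (Hist1h1a and Hist1h4c), and limma called 0. In the lower direction DESeq2 called the same 4. Neither limma fit called Hist1h2br, which stood at 0.99 TPM or below in every library. Without any of KO replicates 1, 2 or 3 or KOL replicates 1 or 2, edgeR called 1 higher. The members' median log2 fold change was −0.55 against −0.02 for all genes, and the median of all genes shifted to −0.38 on the TPM scale, with 932 genes called higher and 2178 lower (30% higher against 53.7%).

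The comparison of KOL with WTL asks what differed between the genotypes once both had met LPS. It shares libraries with the comparisons above, as they do with each other, so values are set side by side without a measure of likeness. Hist1h1c was higher in each KOL library (654 to 943) than in each WTL library (401 to 573), with a log2 fold change of 0.74 ± 0.14 (edgeR adjusted p = 0.000514). The summed count of Hist2h2aa1 and Hist2h2aa2 was also higher without overlap (1.53 ± 0.31, edgeR adjusted p = 0.00116). The sum was called higher without each library in turn, at 1.18 to 1.91. For Hist2h2aa2 alone the call (1.35 ± 0.41, edgeR adjusted p = 0.0152) is lost without KOL replicate 1 (1.10, adjusted p = 0.0765) and in limma with a TPM pseudocount of 0.1 (adjusted p = 0.240). Hist2h2be was lower, at 14 to 16.1 in KOL and 27.6 to 35.1 in WTL (−1.01 ± 0.21, edgeR adjusted p = 0.00112). Limma with a TPM pseudocount of 1 gave −0.40 for Hist2h2be, which was under the fold limit of 1.5.

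Hist1h1d, a linker histone gene, measured 37.8, 61.7 and 34.0 in WTL and 21.5, 14 and 24.6 in KOL. The groups did not overlap (−1.14 ± 0.35, edgeR adjusted p = 0.0149), and the call is lost without WTL replicate 2 (−0.83, adjusted p = 0.0920). Hist1h2bc (0.53 ± 0.14, edgeR adjusted p = 0.00833) and Hist3h2a (0.45 ± 0.11, edgeR adjusted p = 0.00465) were higher at folds under 1.5. Hist1h2bc passed that fold without WTL replicate 3 (0.60) or KOL replicate 2 (0.63). Hist1h4i measured 62.0, 65.0 and 68.0 in WTL and 49.5, 37.4 and 47 in KOL. It was lower in each KOL library at a fold under 1.5 (−0.54 ± 0.17, edgeR adjusted p = 0.0174), and passed it without KOL replicate 1 (−0.62).

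For KOL against WTL, 2 of the 13 members tested were called higher (Hist1h1c and Hist2h2aa2) and 2 lower (Hist1h1d and Hist2h2be), against 12.5% of all genes called higher and 12.5% lower. DESeq2 and both limma fits, which take in members outside the 13, called Hist1h2al higher and Hist1h2bj and Hist1h4m lower. Hist1h2al lay around the floor, at a mean of 4.03 in KOL. Hist1h2bj measured 14.8, 31.4 and 5.32 in WTL, highest in WTL replicate 2, and 1.08, 4.68 and 2.14 in KOL. The sum of Hist1h4m and Hist1h4n overlapped (−1.26, and −0.37 without WTL replicate 2), so no fall is read from Hist1h4m. Neither limma fit called Hist1h1d, which stood at 0.65 TPM or below in every library. The members' median log2 fold change was 0.45 and that of all genes −0.03. The sum of Hist1h2bq and Hist1h2br was also lower (−1.13, edgeR adjusted p = 0.0318), a call lost without WTL replicate 2 or 3 or KOL replicate 2 or 3, with adjusted p from 0.0753 to 0.165. The count called higher was 4 without WTL replicate 2 and 1 without KOL replicate 1. The count called lower was 4 without WTL replicate 1, 1 without WTL replicate 2, 4 without KOL replicate 1 and 5 without KOL replicate 2.

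The interaction tests whether LPS acted differently in KO and WT cells, as the log2 effect of LPS in KO minus that in WT. Hist2h2be fell further in KO than in WT (−1.12 ± 0.24, edgeR adjusted p = 0.00599). The sum of Hist2h2aa1 and Hist2h2aa2 rose less in KO than in WT (−2.26 ± 0.58, edgeR adjusted p = 0.0154), starting from 57.7 ± 9.42 in KO and 4.09 ± 1.60 in WT. For Hist1h1c the difference was −0.35 ± 0.19 (edgeR adjusted p = 0.236), so the effects of LPS on it were not shown to differ. Of the 13 members tested, 2 were called lower (Hist2h2be and Hist2h2aa2) against 8.75% of all genes. In edgeR 0 were called higher against 8.7% of all genes, with 0 at an unadjusted p under 0.05 and 0 in DESeq2 and limma. The members' median was −0.35 against −0.02 for all genes. The call of Hist2h2aa2 is lost without WT replicate 1 (−2.81, adjusted p = 0.0644) or WT replicate 3 (−2.27, adjusted p = 0.0666) and in limma, that of the sum without WT replicate 1 (−2.00, adjusted p = 0.0599) or WT replicate 3 (−2.09, adjusted p = 0.0559), and that of Hist2h2be in limma with a TPM pseudocount of 1.

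Counts pooled over all 69 members were 1741, 2002 and 1999 in WT, 1120.2, 1784 and 1444 in WTL, 3603, 3455 and 3489.9 in KO and 2016, 1566 and 2097 in KOL. KO stood above every other group, and WTL and KOL overlapped, as did WT with WTL. The log2 ratio of group means was 0.88 in KO against WT, −0.89 in KOL against KO, −0.40 in WTL against WT and 0.39 in KOL against WTL. These had no sign turned by the scalings tried. Without Hist1h1c the ratios were 0.59, −0.34, 0.10 and 0.15. The turned sign in WTL against WT needs WTL replicate 2 as well, since without both the ratio was −0.16, and the 0.15 became 0.40. Without WTL replicate 2 the ratios were −0.58 for WTL against WT and 0.56 for KOL against WTL.

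Among the histone types, linker histone H1 genes summed to 1078 ± 38.9 normalized counts in WT, 586 ± 112 in WTL, 2232 ± 23.1 in KO and 880.1 ± 153 in KOL (SD, n = 3 each). No pair of groups compared overlapped, and the log2 ratios were 1.05 for KO against WT, −0.88 for WTL against WT, −1.34 for KOL against KO and 0.59 for KOL against WTL. Hist1h1c made up most of this sum, and the other H1 genes had ratios of −0.05, 0.72, −0.34 and −1.11 in the same order. Without WTL replicate 2 the 0.72 became 0.16 and the −1.11 became −0.55. H2B genes, led by Hist1h2bc, summed to 577 ± 88.4 in WT, 467 ± 85.4 in WTL, 897 ± 51.5 in KO and 562 ± 78.4 in KOL. KO did not overlap WT (0.64) or KOL (−0.67), while WTL overlapped WT (−0.30) and KOL (0.27, with a turned sign of −0.03 in TPM). Without WTL replicate 2 the 0.27 became 0.40. Without Hist1h2bc the H2B ratios were 0.08 for KO against WT, −1.25 for KOL against KO, −0.45 for WTL against WT and −0.72 for KOL against WTL. Without WTL replicate 2 the −0.45 became −0.87 and the −0.72 became −0.30. The higher H2B sum in KO thus came mainly from Hist1h2bc.

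H2A genes summed to 149.6 ± 18.3 in WT, 199.8 ± 28.0 in WTL, 274 ± 5.57 in KO and 323 ± 38.2 in KOL. KO was above WT without overlap (0.87, and 0.56 without Hist2h2aa2), as was KOL above WTL (0.69). The values for LPS were 0.42 in WT and 0.24 in KO, both with overlap, and their signs turned with the total count as the scale (−0.09 and −0.13) and the latter also in TPM (−0.03). H3 genes had 12.5, 21.7 and 25.8 counts in WT, 17.8, 86.0 and 18.3 in WTL, 32.2, 29.7 and 32.5 in KO and 25.0, 16.8 and 22.2 in KOL. KO was above WT without overlap (0.65, and 0.40 to 0.88 with 1 library left out). It was also above KOL without overlap (−0.56 for KOL against KO). WTL replicate 2 was far from the rest, and the ratio for WTL against WT was 1.02 with it and −0.15 without it. H4 genes likewise had 93.1, 256 and 119 in WTL against 90.1 ± 10.6 in WT, 81.7 ± 8.97 in KO and 107 ± 20.4 in KOL. All the H4 groups compared overlapped, with ratios of 0.79 for WTL against WT (0.23 without WTL replicate 2) and −0.14 for KO against WT. The latter ran from −0.23 to −0.04 with 1 library left out.

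**Figure D3:**
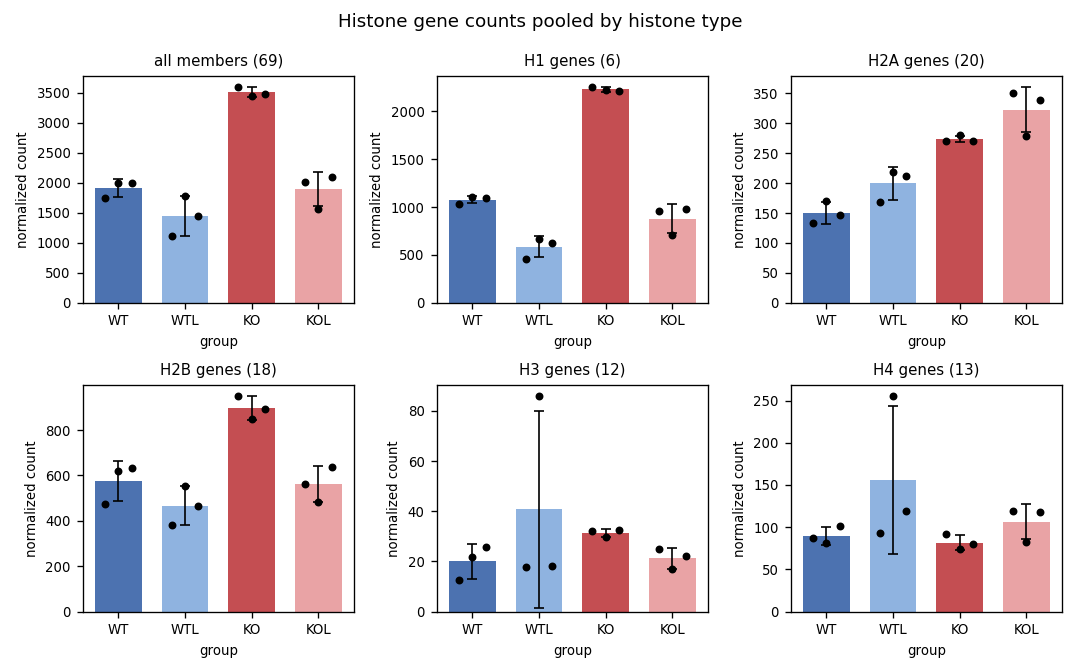
Summed normalized counts of each histone type in each of the 12 libraries, with the mean and SD of each group. H1 is highest in KO at 2232 and H2A highest in KOL at 323, while H3 and H4 are set apart mainly by WTL replicate 2.

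The 4 clusters lie on different chromosomes. Hist1 holds 56 members (6 H1, 15 H2A, 15 H2B, 9 H3 and 11 H4), 55 of them on mm10 chromosome 13 from 21715763 to 23934851. Hist2 holds 10 members on chromosome 3 from 96219865 to 96270132, Hist3 holds 2 on chromosome 11 from 58948920 to 58956830 and Hist4 holds Hist4h4 on chromosome 6. Hist1 summed to 1655 ± 133 in WT, 1210.1 ± 302 in WTL, 3127 ± 74.7 in KO and 1546 ± 243 in KOL, with a log2 ratio of 0.92 for KO against WT. Hist2 summed to 113 ± 4.82, 80.4 ± 26.4, 185 ± 15 and 129 ± 22.3 in the same order, with 0.71 for KO against WT. Its genes did not move as a block, since its H2A genes summed to 4.95 ± 1.60 in WT and 60.8 ± 8.88 in KO while Hist2h2be, in the same cluster, stood at 100.1 ± 2.5 and 108 ± 12.7. For WTL against WT the Hist2 ratio was −0.49 in normalized counts (−0.74 without WTL replicate 2). It turned to 0.63 in summed TPM, where the short Hist2h2aa2 weighs more. On that scale WTL measured 4.78, 13.0 and 12.3 TPM and overlapped WT at 5.75, 6.48 and 7.24 TPM. Hist3 summed to 138 ± 16.8 in WT and 193 ± 14.8 in KO without overlap (0.48). Hist4h4 stood at 7.83 ± 3.70 in WT and 11.4 ± 1.03 in KO and was called in no comparison.

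Some genes beside the named members were tested too. Hfe, the hemochromatosis gene, lies 9125 bases from Hist1h2bc and was called higher in KO than WT (0.52) and lower after LPS in KO (−1.25) and WT (−1.10). Bola1 lies 1409 bases from Hist2h2be and was called lower after LPS in WT (−1.09) and KO (−1.02). Other neighbours went another way. Mtmr11, which lies 49400 bases from Hist2h2be, was called higher after LPS in WT (1.86) and KO (2.07) and lower in KO than WT (−1.96). Fcgr1, which lies 42632 bases from Hist2h2aa2, was called higher after LPS (1.99 and 1.71) and lower in KO than WT (−1.93). Near Hist3h2a, Rnf187 at 15768 bases was called lower in KO than WT (−0.40) and 2310058D17Rik at 8917 bases higher (0.86). Gm20634 is annotated across Hist2h2aa1, so it is no separate neighbour. It was called higher in KO than WT (0.84) and lower in KOL than KO (−1.31), where the sum of Hist2h2aa1 and Hist2h2aa2 was higher. Gm20632 is annotated across Hist2h2aa2 on the other strand, and 26 members overlap another gene. As the strand setting is not known, the part of such overlaps in the counts was not tested.

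Genes that act on histone transcription, mRNA ends, decay and deposition were followed as lists. Their counts stand beside the shares of all genes called, which were 17.3% higher and 17.2% lower in KO against WT, 12.6% and 9.99% after LPS in WT, 15.1% and 13% after LPS in KO, and 12.5% each way between the genotypes after LPS. Of 7 factors of histone gene transcription, all tested, 2 were called lower in KO than WT, the cyclin E genes Ccne1 (−0.54) and Ccne2 (−0.89). In KOL against WTL 2 were lower, Hinfp, which binds H4 gene promoters (−0.63), and Ccne2 (−0.90), and in KOL against KO Ccne1 was higher (1.26). The list medians were −0.17 for WTL against WT, −0.35 in KOL against WTL and −0.22 in KO against WT. Npat, the coactivator of histone genes, was not called in any comparison with all libraries, and was called lower in KOL than WTL without WTL replicate 2 (−0.61, edgeR adjusted p = 0.0182).

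Of 14 genes of histone mRNA 3′ end processing, 2 rose in KO against WT and 3 fell, shares near those of all genes. Lsm11, a core part of the U7 particle, rose by 1.41 (edgeR adjusted p = 3.9e-08) and Ncbp2 by 0.43. Slbp, the stem-loop binding protein, fell by 0.40 on the log2 scale, from 829 ± 56.5 to 628 ± 38.3 normalized counts (edgeR adjusted p = 0.0092). Zfp473, the zinc finger protein of the U7 particle, fell by 1.75, and Cstf2 by 0.75. In KOL against WTL Lsm11 was higher (1.01) and Zfp473 (−1.55) and Cstf2 (−0.75) were lower. The list median was −0.05 for KO against WT and −0.25 for WTL against WT. Of the 13 genes of histone mRNA decay found, Xrn1 and Dcp2, which act in removal of the cap and in decay from the 5′ end, were called higher after LPS in WT (1.56 and 1.97) and in KO (1.32 and 1.71), and Lsm2 was higher in KO than WT (0.46). The median of the decay list was 0.13 after LPS in WT and −0.06 in KO against WT.

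Of 18 histone chaperones, Asf1a was higher in KO than WT (0.59), and Asf1b, Chaf1a, Rbbp7, Daxx and Hjurp were lower. After LPS Daxx rose in WT (2.87) and KO (2.97), Tonsl fell in both (−1.48 and −1.19), and in KO Asf1a rose (1.89) and Asf1b fell (−1.22). Among 11 histone variant genes outside these clusters, most of which make polyadenylated mRNA, H2afy (0.52) and H2afj (0.68) were higher in KO than WT. H2afz (−0.71), H3f3b (−0.87), H1f0 (−0.48) and Cenpa (−0.54) were lower. The abundant H2afz fell from 12308 to 7512 normalized counts, a direction opposite to that of Hist1h1c and Hist1h2bc in the same libraries. After LPS in WT H2afy (1.32) and H3f3b (1.15) rose and Cenpa fell (−1.10). The medians in KO against WT were −0.24 for the chaperones and −0.20 for the histone variant genes, beside −0.01 for all genes.

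Genes of S phase, when histone genes of this kind are normally transcribed, went mainly the other way from Hist1h1c in KO. Of 23 such genes, 13 were called lower and 1 higher in KO than WT (Mcm2, 0.58), with a list median of −0.43. After LPS 3 were lower in WT and 8 in KO, with medians of −0.58 and −0.85, and in KOL against WTL 12 were lower and 1, Pcna (0.78), higher. Their summed level was 814, 802 and 759.6 TPM in WT and 652, 655 and 656 TPM in KO. It was 497, 452 and 481 TPM in WTL and 532, 482 and 533 TPM in KOL. The markers of cycling cells Mki67 and Top2a summed to 156, 142 and 145 TPM in WT, and 87.3, 95.6 and 93.3 TPM in KO. Both S phase and cycling markers were thus lower in KO without overlap, and their part in the histone values was not tested.

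Other RNAs without a poly(A) tail were followed as a list. Whether their levels differ through the RNA taken into a library or through LPS itself was not tested. Their summed level was 283, 289.6 and 375 TPM in WT, 283, 3611 and 402 TPM in WTL, 178, 318 and 257 TPM in KO and 1961, 1673 and 2185 TPM in KOL. Rn7sk was the most abundant, Terc and Rnu7 had 0 counts, and 3 of 11 entries for 10 symbols were tested. All 3 (Rn7sk, Rmrp and Rpph1) were called higher in WTL than WT, and without WTL replicate 2 only Rn7sk was (1.01, edgeR adjusted p = 0.00049). In KOL against KO Rn7sk and Rpph1 were called higher. In KOL against WTL Rmrp was called lower, a call lost without WTL replicate 2 (0.40, edgeR adjusted p = 0.343), where Rn7sk was called higher instead (2.91, edgeR adjusted p = 9.44e-08). In the interaction none was called with all libraries, and without WTL replicate 2 all 3 were called higher (Rn7sk 2.96, edgeR adjusted p = 1.44e-05; Rmrp 1.66, edgeR adjusted p = 0.0254; Rpph1 3.00, edgeR adjusted p = 0.00367). KO and WT overlapped in this sum. The part of such RNA in the histone values was not tested.

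Promoter letters set the histone types apart. RefSeq promoters of GRCm38.p6, from 250 bases before to 50 after each start, were matched for 61 members and compared with all 32851 promoters of the table, both strands searched. CCAAT was found in 85.2% of the members and 37.4% of all promoters, in 100% of H1, H2A, H2B and H3 promoters and in 25% of H4 promoters. TATAAA was found in 57.4% of members against 13.6%. The octamer ATTTGCAT was found in 23% of members against 1.74%, in 7 of 17 H2A and 7 of 16 H2B promoters and in no H1, H3 or H4 promoter. The H1 box AAACACA was found in 5 of 6 H1 promoters against 7.18% of all promoters. The Hist1h1c promoter held CCAAT and AAACACA and not TATAAA. A match is a description of letters and not of a bound site.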

How the data were processed

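RNA-seq of 12 libraries was taken as deposited: the authors aligned reads to mm10 with STAR, version 2.5.1 per the labels while the study's reporting summary names another, and quantified GENCODE genes with RSEM, and the deposited units are the expected count and TPM. Expected counts were rounded, filtered with filterByExpr by group, scaled by TMM and tested with edgeR 4.0.16 (glmQLFit and glmQLFTest, R 4.3.3) in 1 fit of all libraries, with Benjamini-Hochberg adjustment over 14008 genes. A gene was called at an adjusted p under 0.05 and a fold above 2 (WTL against WT, KOL against KO), 1.3 (KO against WT) or 1.5 (KOL against WTL), with no fold limit for the interaction. Pools are sums of normalized counts with no p. Named members are the 8 highest in mean TPM, up to 3 rises and 3 falls per comparison and up to 5 in the interaction. Members and lists were chosen with earlier results of these data known. Alternatives were DESeq2 1.42.0, its size factors, copies alike in sequence summed, sums without their leading members and list genes without WTL replicate 2 (these 3 chosen after seeing the data), other filters, limma 3.58.1 on log2 TPM with a pseudocount of 1 or 0.1, fits of 6 libraries, no fold limit, the replicate number as a block, other scalings of pools and leaving out each library. The floor is 3 counts per library, and intervals cover counting error only. The p-values measure spread between these samples.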

Additional observations from a re-analysis of the deposited data

Results flagged for a closer look

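The effect of LPS differed between the genotypes for 2 members by the interaction test of edgeR. For Hist2h2be the log2 effect of LPS in KO minus that in WT was −1.12, with group means of 100.1 in WT, 31.4 in WTL, 108 in KO and 15.4 in KOL. For Hist2h2aa2 it was −2.91, and −2.26 for the sum with its neighbour Hist2h2aa1, alike in sequence. The calls of Hist2h2aa2 and of the sum are lost without WT replicate 1 or WT replicate 3. Limma did not call Hist2h2aa2, and called Hist2h2be only with a TPM pseudocount of 0.1.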

How the results depend on the processing

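Of 377 tests of named members under other settings 360 kept their side of the threshold, 11 passed it newly and 6 lost it, and of 360 that left out a library 342 kept it, 9 passed newly and 9 lost it. No called value changed sign, while some that were not called did, such as Hist1h4i and Hist3h2a after LPS in TPM. Counts of members called that moved by over 1.5 times are given by comparison. For WTL against WT the 2 called higher became 4 in DESeq2, 12 with no filter, 0 with at least 10 counts in every library, 1 with either TPM pseudocount and 1 in the 6 libraries alone. The 4 higher in KO than WT became 7 in the 6 libraries alone, and the 0 lower became 1 in DESeq2, 4 with no filter and 1 and 2 with the TPM pseudocounts 1 and 0.1. For KOL against WTL the 2 higher became 4 with no filter, 1 with at least 10 counts and 4 with no fold limit, and the 2 lower 5 in DESeq2 and 9 with no filter. For KOL against KO the 0 higher became 2 in DESeq2 and 3 with no filter, and the 4 lower 2 with at least 10 counts. For the interaction the 0 higher became 1 with no filter, and the 2 lower 4 with no filter, 1 with at least 10 counts and 0 and 1 with the TPM pseudocounts. More or fewer members tested is built into each filter; elsewhere the cause was not tested. Leaving out each library gave 1 to 5 higher and 1 to 4 lower for WTL against WT, 1 to 4 higher and 1 to 5 lower for KOL against WTL, 0 to 1 higher for KOL against KO and 1 to 3 lower for the interaction.

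The pooled log2 ratio moved for WTL against WT from −0.40 to −0.91 with the total count, 0.10 without the most abundant member and −0.78 with members of whole counts only. For KO against WT it moved from 0.88 to 0.75 in TPM, 0.59 without the most abundant member and 0.038 with whole counts only. The value in KOL against WTL moved from 0.39 to −0.75 with whole counts only. For KOL against KO it moved from −0.89 to −1.27 with the total count, −0.34 without the most abundant member and −1.56 with whole counts only. Leaving out each library gave −0.58 to −0.25, 0.81 to 0.91, 0.23 to 0.56 and −0.97 to −0.77 in the same order. Whole counts only (within 0.01 of a whole number) keeps 17 members, 10 of them with a count, and drops Hist1h1c. Among pools by cluster or type whose groups did not overlap, signs reversed in 12 cases. Pools with overlapping groups turned sign as well, among them H2B in KOL against WTL (−0.72) and Hist1 after LPS in WT (0.17) without the most abundant member. Both values include WTL replicate 2. Without it the −0.72 became −0.30, and the 0.17 was not taken again. With whole counts only Hist1 turned to −0.85 in KO against WT and 0.16 after LPS in KO, Hist3 to −2.17 in KOL against WTL, and H1 to 0.76 after LPS in WT, 0.29 after LPS in KO, −0.69 in KO against WT and −1.17 in KOL against WTL. Without the most abundant member Hist3 turned to −2.17 for KOL against WTL, and H1 to 0.72 after LPS in WT, −0.052 in KO against WT and −1.11 in KOL against WTL. Without WTL replicate 2 as well, the 0.72 became 0.16 and the −1.11 became −0.55. The values with whole counts only were not taken without that library. In summed TPM Hist2 turned to 0.63 for WTL against WT.

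With the replicate block the counts of members called stayed at 2 higher and 2 lower after LPS in WT, 0 and 4 after LPS in KO, 4 and 0 in KO against WT, 2 and 2 in KOL against WTL and 0 and 2 in the interaction. No pairing of libraries by replicate number was seen in deviations from the group mean across genes. Libraries with the same number had a mean correlation of −0.0329 over 18 pairs (−0.325 to 0.126). Those with other numbers had 0.0172 over 36 pairs (−0.306 to 0.367). Such means cannot settle whether libraries shared animals or culture days. Low counts limit what can be said: 56 of 69 members were not tested, and members with a few counts per library, such as Hist1h4m and Hist1h2al, were called by some tools and not tested by edgeR after its filter. The 2 genotypes are confounded with any unstated difference in 4-OHT. Poly(A) selection or ribosomal depletion decides which histone mRNA is counted and could not be settled from the files.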
